A study of Homo sapiens with 8 samples.

Results

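CCN1, CCN2, ANKRD1, AMOTL1, AMOTL2, LATS2, AJUBA, AXL and CRIM1, genes in common use as readouts of the coactivators YAP and TAZ, were examined together with YAP1, the gene of YAP itself, in 2 ovarian cancer cell lines. The 10 genes were chosen by name, with earlier results of these data known. Their counts and medians beside all probes or genes are therefore a description. All 10 had a probe, among 22428 genes with a named probe. They had 11 of the 58162 probes analysed, since AMOTL1 had 2 probes and every other gene had 1. OVSAHO and KURAMOCHI are established cell lines of serous ovarian cancer. Cells of each line were incubated with simvastatin, a statin that inhibits HMG-CoA reductase and so lowers the supply of all products of the mevalonate pathway, or with L-778123, which inhibits protein prenylation by farnesyltransferase and by geranylgeranyl transferase type I. RNA of each of the 4 combinations was hybridized to 2 one-color SurePrint G3 arrays. All cells had received 1 of the drugs, and untreated cells were not analysed here, so that a gene that was lower with simvastatin than with L-778123 may have fallen with the former or risen with the latter. The doses and incubation times of these cultures are not given in the sources used here. Nothing in the labels says that the 2 arrays of a group came from separate cultures, so that every p-value measures only the spread between these arrays, which may be technical.

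YAP and its relative TAZ, encoded by WWTR1, act in the nucleus as coactivators of the TEAD transcription factors. In the Hippo pathway the MST kinases act upstream of the LATS kinases, which phosphorylate YAP and TAZ. This keeps YAP and TAZ in the cytoplasm and promotes their degradation. Several of their target genes, among them LATS2, AMOTL2 and AJUBA, encode parts of the same pathway and so belong to its feedback. Tension in the cytoskeleton is known to favor nuclear YAP and TAZ, and statins are known to reduce their share in the nucleus.

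Each level below is a log2 intensity from which the array's own 75th percentile was subtracted, so that 0 is a signal as bright as that percentile. The 75th percentile was an intensity of 324 to 437, and 51.8% to 57.5% of the probes were well above background, the flag of the scanner's software for a spot brighter than its surroundings. No spot was saturated. The 33753 probes tested were each well above background on 2 of 2 arrays in some group. The 2 arrays of a group may not be independent replicates. Across these probes, replicate arrays had a Pearson r of 0.995 to 0.996. It was 0.973 to 0.984 between the drugs within a line and 0.865 to 0.881 between the lines. Line and drug each had their own positions on the single slide, so an effect of position cannot be told apart from one of the group. All 9 markers of serous epithelium that were looked up, such as PAX8 and EPCAM, were well above background in each group. Of 6 markers of leukocytes, endothelium, fibroblasts and hepatocytes with a probe, DCN, LUM and PECAM1 were not well above background on any array, and VWF, PTPRC and ALB were on all. The summed signal of these 6 was 0.396 to 0.427 times the 75th percentile in OVSAHO cells with simvastatin and 0.983 to 1.03 times in the other groups, and VWF was lower there than in OVSAHO cells with L-778123 by -3.30 on the log2 scale. The part of this difference in the results was not tested.

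The promoters of these genes are shown because several were lower together, and because the promoter of CCN2 is a well-known site of TEAD binding. The sequences are those of RefSeq on GRCh38.p14, from 250 bases before to 50 after an annotated start. The motif GGAATG, the core of the TEAD site, was searched on both strands, so that CATTCC counts as well. For 8 of the 10 genes the table held 11 promoters, and 7 of them had at least 1 motif, against 14.0% of 35116 promoters. CCN2 had 3 motifs, as did 0.128% of all promoters, at 169, 104 and 95 bases before the start, and ANKRD1 had 2, at 220 and 128 bases. At least 2 were found in 1.37% of all promoters. AMOTL2 and AJUBA had 1 each at an alternative start, 69 and 59 bases before it, and YAP1 had 1 at 162 bases. AXL had 1 at 212 bases before an alternative start, LATS2 had 1 at 10 bases after the start, and AMOTL1 had none. CCN1 and CRIM1 were not in the table. A match describes these letters and is not evidence of binding. In the stretches that follow, written 5′ to 3′ on the strand of the gene, capitals mark the motif.
CCN2, chr6:131951442-131951561, minus strand: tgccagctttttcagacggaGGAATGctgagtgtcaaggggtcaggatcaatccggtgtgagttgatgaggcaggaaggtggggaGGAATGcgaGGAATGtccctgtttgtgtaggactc
ANKRD1, chr10:90921190-90921327, minus strand: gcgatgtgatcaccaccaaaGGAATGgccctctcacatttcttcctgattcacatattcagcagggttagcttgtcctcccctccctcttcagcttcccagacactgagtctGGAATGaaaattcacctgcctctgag
AMOTL2, chr3:134374491-134374536, minus strand: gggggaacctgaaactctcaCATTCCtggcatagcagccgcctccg
AJUBA, chr14:22976876-22976921, minus strand: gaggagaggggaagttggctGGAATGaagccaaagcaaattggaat
YAP1, chr11:102110265-102110310, plus strand: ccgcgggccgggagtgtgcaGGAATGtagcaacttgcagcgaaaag

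With simvastatin, CCN1, CCN2 and AMOTL2 were lower than with L-778123 in both cell lines. AJUBA and LATS2 passed the fold threshold in OVSAHO alone, and ANKRD1 was lower in KURAMOCHI, the only line in which it was measurable. AXL, YAP1 and AMOTL1 did not follow them, with small positive differences in both lines. A gene was called where limma gave a Benjamini-Hochberg adjusted p, taken over all probes tested, under 0.05 and the groups differed at least 2-fold. Of the 10 genes, 9 could be tested, and CRIM1 was too dim. In OVSAHO cells, 5 of the 9 were called lower and 0 higher, where 6.19% of all probes tested were called lower and 4.78% higher. The median log2 fold change of the 9 was -1.07, against 0.014 over 16942 genes. ANKRD1 is among the 9 and in this median through its fitted value, although it was not measurable in OVSAHO. In KURAMOCHI cells, 4 of the 9 were called lower and 0 higher, where 3.54% of all probes were called lower and 2.05% higher. Here the median of the 9 genes was -0.84, against 0.012 over all genes. By the adjusted p alone, without a fold, 5 genes were lower and 1 higher in OVSAHO, where 25.1% and 23.0% of all probes were, and 6 were lower and 2 higher in KURAMOCHI, where 17.3% and 14.1% were. The drug comparisons of the 2 lines share no array. The arrays measure RNA pooled over the cells of a culture, so that fewer expressing cells and less RNA per cell cannot be told apart.

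**Figure D1:**
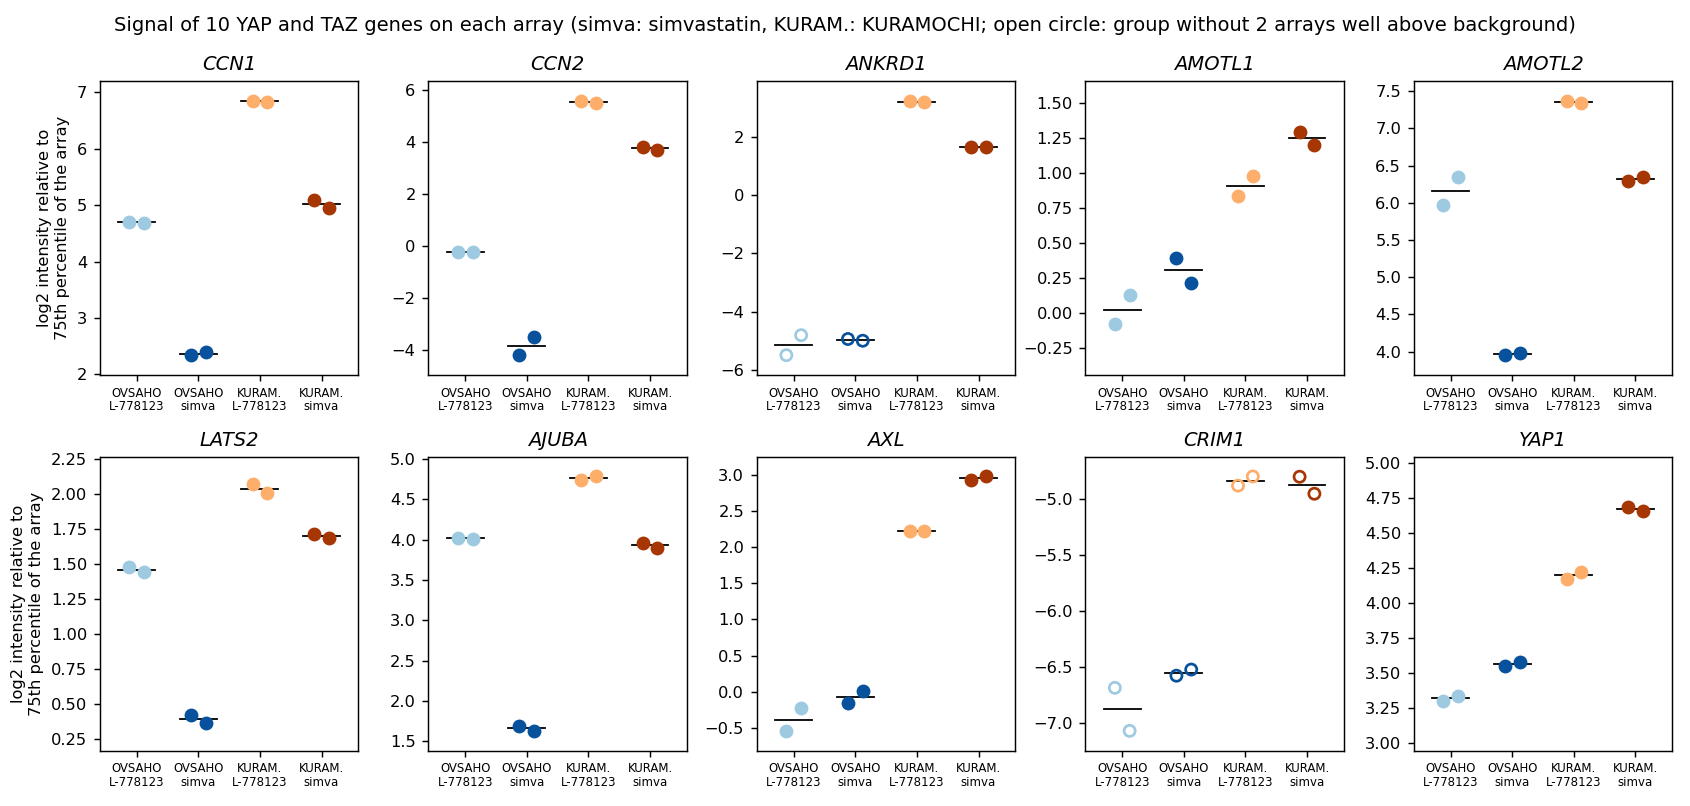
Log2 intensity relative to the 75th percentile of the array (y axis, own scale for each gene) of the 10 genes in the 4 groups of cell line and drug (x axis), with a point for each array and a line at the mean of 2. CCN1, CCN2, AMOTL2, LATS2 and AJUBA lie lower with simvastatin than with L-778123 in both lines, and the OVSAHO points of ANKRD1 and all points of CRIM1 are open because they were not well above background.

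CCN1 and CCN2 encode matricellular proteins that are secreted and bind integrins, and ANKRD1 encodes a nuclear ankyrin repeat protein best known from muscle. CCN1 stood at 4.69 and 4.69 in OVSAHO cells with L-778123 and at 2.34 and 2.39 with simvastatin. In KURAMOCHI cells it stood at 6.85 and 6.82 with L-778123 and at 5.09 and 4.95 with simvastatin. The replicates lay close together in each group, and in neither line did the drugs overlap. The log2 fold change of simvastatin over L-778123 was -2.32 in OVSAHO (SE, the standard error, 0.067, with an adjusted p of 2.04e-05 by limma), a 5.01-fold lower signal, and -1.81 in KURAMOCHI (SE 0.067, adjusted p = 1.42e-04), a 3.51-fold lower signal.

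CCN2 was lower with simvastatin in both lines, and in OVSAHO it was measured close to the background. With L-778123 it stood at -0.20 on both OVSAHO arrays, and with simvastatin at -4.18 and -3.49, which on average is 0.77 above the lowest signal that was well above background on those arrays. In KURAMOCHI it stood at 5.59 and 5.52 with L-778123 and at 3.81 and 3.71 with simvastatin, far from background. The log2 fold change was -3.63 in OVSAHO (SE 0.21, limma adjusted p = 1.24e-04) and -1.79 in KURAMOCHI (SE 0.21, adjusted p = 0.00285). The OVSAHO value depended on how background was removed. It was -1.96 with the normexp correction, in which an offset of 50 draws dim signals together, and still called, but smaller than the -2.31 of AJUBA, the -2.29 of CCN1 and the -2.27 of AMOTL2 under the same correction, while the KURAMOCHI value stayed within -1.85 to -1.74 over all alternatives.

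ANKRD1 was not well above background on any of the 4 OVSAHO arrays, at -4.93 and -4.99 with simvastatin and -5.48 and -4.80 with L-778123, and no fold is given there. In KURAMOCHI cells it stood at 3.22 and 3.17 with L-778123 and at 1.63 and 1.64 with simvastatin. Its log2 fold change there was -1.57 (SE 0.21, limma adjusted p = 0.00405), a 2.96-fold lower signal. In the two-way analysis of variance of the study's methods, CCN2 and ANKRD1 in KURAMOCHI no longer passed the threshold, at adjusted p values of 0.0514 and 0.0656. Both that test and the main limma fit share 1 spread over the 4 groups. Why the 2 tests differed for these genes was not tested. The standard deviation of CCN2 was 0.49 in OVSAHO with simvastatin, against 0.076 and 0.051 in the KURAMOCHI groups. For ANKRD1 it was 0.48 in OVSAHO with L-778123, against 0.0067 and 0.038 in the KURAMOCHI groups. On the KURAMOCHI arrays alone, the limma adjusted p was 0.00629 for CCN2 and 0.00612 for ANKRD1.

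The genes of the pathway's own scaffolds and kinases split. AMOTL2, LATS2 and AJUBA were lower with simvastatin, and AMOTL1 was not. AMOTL1 and AMOTL2 encode angiomotin-like proteins, which bind YAP and hold it at junctions, LATS2 encodes 1 of the kinases that phosphorylate YAP and TAZ, and AJUBA encodes a LIM domain protein that binds and restrains LATS kinases. AMOTL2 stood at 5.98 and 6.35 in OVSAHO cells with L-778123 and at 3.95 and 3.98 with simvastatin. In KURAMOCHI it stood at 7.37 and 7.34 with L-778123 and at 6.29 and 6.34 with simvastatin. The drugs did not overlap in either line, and the OVSAHO arrays with L-778123 were the least alike. AMOTL2 thus differed by -2.20 in OVSAHO (SE 0.12, limma adjusted p = 1.00e-04) and -1.04 in KURAMOCHI (SE 0.12, adjusted p = 0.00263), which is 2.05-fold and just past the fold threshold.

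AJUBA stood at 4.02 and 4.01 in OVSAHO cells with L-778123 and at 1.69 and 1.63 with simvastatin. The KURAMOCHI arrays gave 4.74 and 4.78 with L-778123 and 3.96 and 3.89 with simvastatin. Between the drugs AJUBA differed by a log2 fold change of -2.35 in OVSAHO (SE 0.058, limma adjusted p = 1.92e-05), a 5.12-fold lower signal. In KURAMOCHI it was -0.84 (SE 0.058, adjusted p = 5.46e-04), which passed the test and at 1.78-fold missed the fold threshold.

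LATS2 stood at 1.48 and 1.44 in OVSAHO cells with L-778123 and at 0.42 and 0.36 with simvastatin. The KURAMOCHI arrays gave 2.07 and 2.01 with L-778123 and 1.72 and 1.69 with simvastatin. The steps were small beside those of CCN1 and larger than the gaps between replicates. LATS2 differed by -1.07 in OVSAHO (SE 0.057, limma adjusted p = 9.31e-05) and -0.34 in KURAMOCHI (SE 0.057, adjusted p = 0.00881), the latter under the fold threshold. With normexp the OVSAHO value was -0.996, just short of 2-fold.

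AMOTL1, read at the brighter of its probes, stood at -0.080 and 0.12 in OVSAHO cells with L-778123 and at 0.39 and 0.22 with simvastatin. In KURAMOCHI it stood at 0.84 and 0.98 with L-778123 and at 1.29 and 1.20 with simvastatin. The log2 fold change was 0.28 in OVSAHO (95% interval 0.020 to 0.55, limma adjusted p = 0.0740) and 0.34 in KURAMOCHI (95% interval 0.077 to 0.60, adjusted p = 0.0589), and neither passed the test. With normexp KURAMOCHI passed it (adjusted p = 0.0219). Both lines passed it among probes well above background on all arrays, at 0.0473 in OVSAHO and 0.0345 in KURAMOCHI. The other probe was well above background on 1 of the 4 OVSAHO arrays, and its fitted log2 differences of -0.31 in OVSAHO and 0.59 in KURAMOCHI had adjusted p values of 0.333 and 0.123. The probes thus differ in sign in OVSAHO, where the dimmer of them gives no reliable level.

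**Figure D2:**
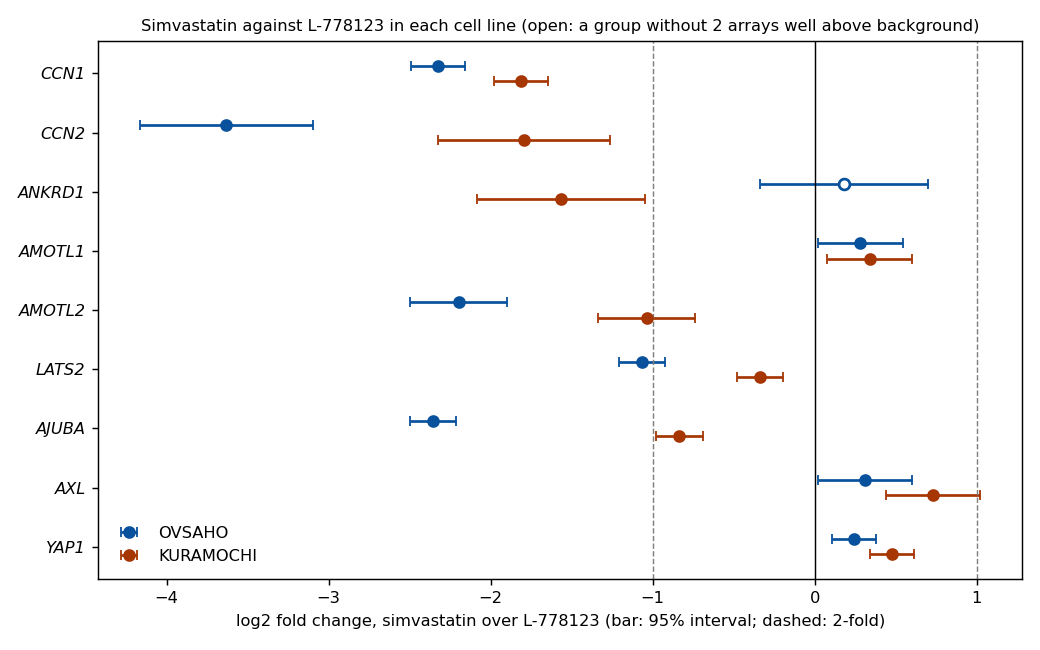
Log2 fold change of simvastatin over L-778123 (x axis) for the 9 genes tested (y axis) in OVSAHO (blue) and KURAMOCHI (brown), with 95% intervals from limma and dashed lines at 2-fold. The 5 genes past the lower line in OVSAHO are CCN1, CCN2, AMOTL2, LATS2 and AJUBA, and the open point of ANKRD1 in OVSAHO rests on groups not well above background.

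AXL and CRIM1 encode membrane proteins, and neither was called in either line. AXL, a receptor tyrosine kinase whose ligand is GAS6, stood at -0.54 and -0.23 in OVSAHO cells with L-778123 and at -0.16 and 0.013 with simvastatin. In KURAMOCHI it stood at 2.22 and 2.22 with L-778123 and at 2.93 and 2.97 with simvastatin. AXL was thus higher with simvastatin in KURAMOCHI, by a log2 fold change of 0.73 (SE 0.12, limma adjusted p = 0.00737), which is 1.66-fold and under the threshold of 2-fold. The methods' two-way analysis of variance gave it an adjusted p of 0.0844. In OVSAHO the difference was 0.31 (95% interval 0.019 to 0.60) and did not pass the test, with a limma adjusted p of 0.0757. It passed with normexp (0.0302) and among probes well above background on all arrays (0.0481). Over the alternatives the difference ranged from 0.15, without the OVSAHO L-778123 replicate 1, to 0.47, without its replicate 2. CRIM1, a transmembrane protein with cysteine-rich repeats that binds bone morphogenetic proteins, was not well above background on any of the 8 arrays. Its signals of -7.07 to -6.52 in OVSAHO and -4.95 to -4.80 in KURAMOCHI are only upper bounds, and it was not tested.

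YAP1, whose product the other genes report on, was not lower with simvastatin in either line. It stood at 3.30 and 3.34 in OVSAHO cells with L-778123 and at 3.55 and 3.58 with simvastatin. On the KURAMOCHI arrays YAP1 stood at 4.17 and 4.22 with L-778123 and at 4.69 and 4.66 with simvastatin. Both simvastatin arrays lay above both L-778123 arrays in each line. The log2 fold change was 0.24 in OVSAHO (SE 0.054, limma adjusted p = 0.0139) and 0.48 in KURAMOCHI (SE 0.054, adjusted p = 0.00242). Both passed the test, and both were under 2-fold. In OVSAHO it was not passed with no filter on dim probes (adjusted p = 0.0714), with the OVSAHO arrays alone (0.0527), without the simvastatin replicate 2 (0.0655) or without the L-778123 replicate 1 (0.0570). WWTR1, the gene of TAZ, differed by -0.03 in OVSAHO (adjusted p = 0.767) and was lower by -0.50 in KURAMOCHI (adjusted p = 0.00906). Transcript levels do not show the amount, phosphorylation or place of the proteins.

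AJUBA, AMOTL2 and LATS2 differed further between the drugs in OVSAHO than in KURAMOCHI. The difference of the log2 fold changes, OVSAHO minus KURAMOCHI, was tested itself in limma. It was called lower for 3 of the 9 genes and higher for 1, where 3.25% and 3.86% of all probes were called. The median of the 9, with ANKRD1 among them, was -0.51, against -0.01 over all genes. The difference was -1.52 for AJUBA (SE 0.082, adjusted p = 4.63e-04), -1.16 for AMOTL2 (SE 0.17, adjusted p = 0.00801) and -1.84 for CCN2 (SE 0.30, adjusted p = 0.0113). That of AJUBA was -1.55 to -1.44 over all alternatives. The difference of CCN2 was -0.13 with normexp (adjusted p = 0.429), in which the offset draws dim signals together. It kept its call in 17 of the 18 alternatives, but takes in the dim OVSAHO arrays with simvastatin. That of AMOTL2 was -0.97, under 2-fold, without the OVSAHO L-778123 replicate 2. LATS2 at -0.73 (adjusted p = 0.00333) and CCN1 at -0.51 (adjusted p = 0.0158) passed the test under the fold threshold. CCN1 did not pass it with no filter on dim probes (adjusted p = 0.0681), without the OVSAHO simvastatin replicate 1 (0.0535) or without the KURAMOCHI L-778123 replicate 2 (0.0526). By the adjusted p alone 5 genes were lower and 1 higher, where 11.7% and 11.2% of all probes were. The 1 called higher was ANKRD1, at 1.75 (SE 0.30, adjusted p = 0.0121), for which the OVSAHO side had only a bound, so its value is not a measured difference of responses. For AXL, YAP1 and AMOTL1 the test was not passed, at -0.42 (95% interval -0.83 to -0.01), -0.23 (-0.42 to -0.04) and -0.06 (-0.43 to 0.31).

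The level of every tested gene was lower in OVSAHO than in KURAMOCHI cells. Averaged over the drugs, 6 of the 9 were called lower and 0 higher, where 16.1% and 17.6% of all probes were called, and the median was -1.77, against 0.028 over all genes. The 6 are CCN2, AXL, CCN1, AMOTL2, AJUBA and ANKRD1, and the call of ANKRD1 follows from the filter on dim probes. ANKRD1 also enters the median and the count by the adjusted p alone. By the adjusted p alone, all 9 were lower, where 37.4% of all probes were lower and 40.2% higher. These values use the same arrays as the drug comparisons. CCN2 differed by -6.68, AXL by -2.81, CCN1 by -2.40, AMOTL2 by -1.77 and AJUBA by -1.51, with adjusted p values of 4.51e-07, 1.06e-06, 2.89e-07, 6.96e-06 and 8.07e-07 from limma. ANKRD1 was at least 75.2-fold lower in OVSAHO with simvastatin and at least 247-fold lower with L-778123. It passed the filter on dim probes through KURAMOCHI alone, so that its call follows from the filter and no p-value is given for it. These bounds set the KURAMOCHI mean against what the OVSAHO arrays could show, which on each array is the dimmest signal well above background or, where brighter, the signal of ANKRD1. YAP1 at -0.99, LATS2 at -0.94 and AMOTL1 at -0.91 passed the test and lay under 2-fold, which for YAP1, at 1.99-fold, was a matter of the setting. The other probe of AMOTL1 gave -3.39 with OVSAHO arrays near background.

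**Figure D3:**
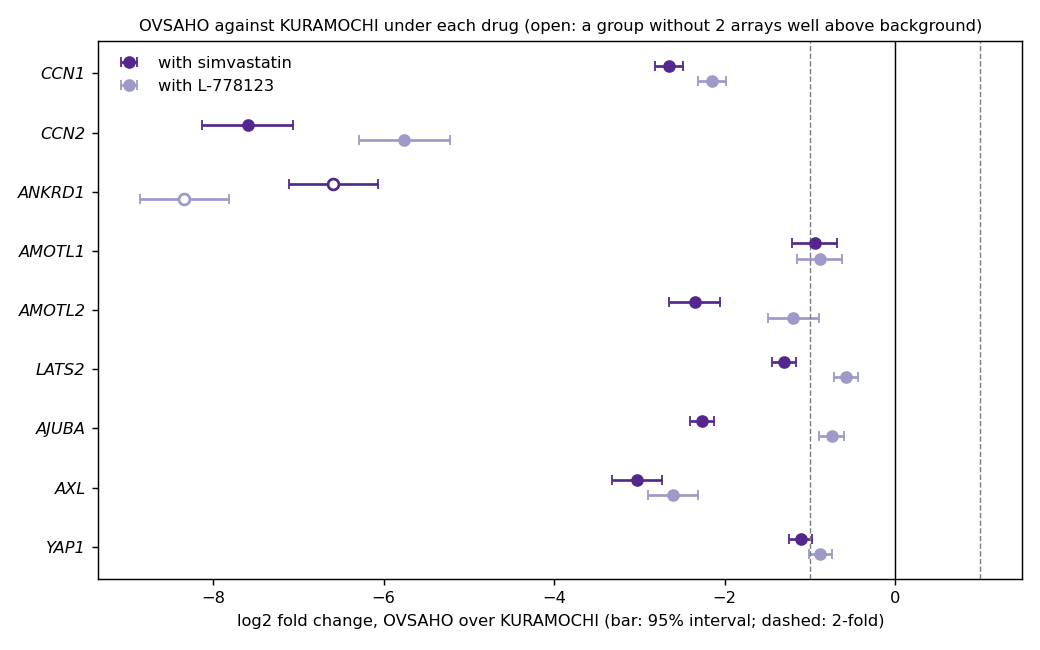
Log2 fold change of OVSAHO over KURAMOCHI (x axis) for the 9 genes tested (y axis) with simvastatin (dark) and with L-778123 (light), with 95% intervals from limma and dashed lines at 2-fold. All points lie left of 0, and the open points of ANKRD1 mark OVSAHO signals that were not well above background.

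The gap between the lines is given here under each drug. Its change from drug to drug is the difference of the log2 fold changes given above, and not a further result. With simvastatin the gap was -7.60 for CCN2, -2.66 for CCN1, -2.27 for AJUBA, -2.35 for AMOTL2 and -1.31 for LATS2. With L-778123 the gaps were -5.76, -2.15, -0.75, -1.19 and -0.58 in the same order of genes. CCN2 stood near background in OVSAHO with simvastatin. For AXL, YAP1 and AMOTL1 the gaps were -3.03, -1.11 and -0.94 with simvastatin and -2.60, -0.88 and -0.89 with L-778123, and their change between the drugs did not pass the test. In the order of the groups, CCN1, CCN2 and LATS2 were highest in KURAMOCHI with L-778123, followed by KURAMOCHI with simvastatin, OVSAHO with L-778123 and OVSAHO with simvastatin, and each neighbor differed from the next by the test. The smallest of these steps were those between KURAMOCHI with simvastatin and OVSAHO with L-778123, at 0.33 for CCN1 (limma adjusted p = 0.00521) and 0.24 for LATS2 (adjusted p = 0.0101). AMOTL2 had the same order, but its 2 middle groups, 0.16 apart, did not differ beyond their spread (adjusted p = 0.293). For AJUBA the middle groups stood the other way round, 0.09 apart, and did not differ either (adjusted p = 0.220). AXL, YAP1 and AMOTL1 were highest in KURAMOCHI with simvastatin and lowest in OVSAHO with L-778123. All neighbors of YAP1 differed, while the OVSAHO groups of AXL and the groups within each line of AMOTL1 did not differ beyond their spread.

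Most of the other genes named as YAP and TAZ targets stood lower with simvastatin in both lines. Of 15 listed, 13 had a probe that passed the filter on dim probes, and 5 were called lower and 2 higher in OVSAHO, beside 6.19% and 4.78% of all probes, with a median of -0.96 on the log2 scale. In KURAMOCHI 1 was called lower and 0 higher, beside 3.54% and 2.05% of all probes, with a median of -0.40. By the adjusted p alone, 10 were lower and 2 higher in OVSAHO, beside 25.1% and 23.0%, and 9 were lower and 0 higher in KURAMOCHI, beside 17.3% and 14.1%. IGFBP3, which binds insulin-like growth factors, was called in both lines, at -1.23 in OVSAHO (limma adjusted p = 0.00147) and -1.52 in KURAMOCHI (adjusted p = 0.00149), with 1 of the 2 OVSAHO arrays with simvastatin well above background. GADD45A, a gene of the DNA damage response, and NUAK2, a kinase of the AMPK family, were called lower in OVSAHO at -1.25 each (adjusted p = 9.55e-05 and 9.56e-05). They were at -0.33 and -0.54 in KURAMOCHI, under 2-fold. F3, the tissue factor of coagulation, was at -0.96 and -0.91, and MYOF at -0.72 and -0.64, which passed the test in both lines under 2-fold. PTPN14, a phosphatase that binds YAP, was at -0.97 and -0.48. The largest fall in OVSAHO by the fit was that of RBMS3, an RNA-binding protein, which is among the 5 called lower. In OVSAHO its signal was well above background on 0 of 2 arrays with simvastatin and on 1 of 2 with L-778123. RBMS3 passed the filter through KURAMOCHI alone. Its difference in OVSAHO was at least 1.54-fold, a bound under the threshold of 2-fold. The largest rise was that of TGFB2, a transforming growth factor, which was higher with simvastatin in OVSAHO by 2.02 (adjusted p = 5.45e-05) and stood at 0.07 in KURAMOCHI. The difference between the lines was called for TGFB2, at 1.94.

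Upstream of YAP and TAZ, 17 Hippo kinases and scaffolds were tested. In OVSAHO 2 were called lower and 1 higher, beside 6.19% and 4.78% of all probes, with a median of -0.18. In KURAMOCHI 0 were called, beside 3.54% lower and 2.05% higher, with a median of -0.12. By the adjusted p alone, 7 were lower and 4 higher in OVSAHO, beside 25.1% and 23.0% of all probes, and 4 were lower and 1 higher in KURAMOCHI, beside 17.3% and 14.1%. WTIP, a LIM protein of the AJUBA family, was called lower in OVSAHO at -1.34 (limma adjusted p = 6.96e-05) and stood at -0.18 in KURAMOCHI. The gene called higher was TAOK3, a kinase upstream of MST, at 1.85 (adjusted p = 0.00328) in OVSAHO. NF2, the gene of merlin, was at -0.69 and -0.49 and passed the test in both lines, as did LIMD1 at -0.27 and -0.39. AMOT was at -0.55 in OVSAHO (adjusted p = 0.00531) and 0.04 in KURAMOCHI. LATS1, the other LATS kinase, did not pass the test in either line, at -0.18 and -0.21.

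Among the partners of YAP in the nucleus, 0 of 7 tested genes were called in either line at 2-fold, too few genes to set this count apart from the shares of all probes given above, with medians of -0.03 in OVSAHO and -0.20 in KURAMOCHI. By the adjusted p alone, 3 were lower and 1 higher in OVSAHO, beside 25.1% and 23.0% of all probes, and 3 were lower and 2 higher in KURAMOCHI, beside 17.3% and 14.1%. TEAD1, a transcription factor that binds YAP, was at -0.26 in OVSAHO and -0.52 in KURAMOCHI, and passed the test in both. TEAD3 was at -0.62 in OVSAHO (limma adjusted p = 0.00322) and -0.0046 in KURAMOCHI. TEAD4 was at 0.0042 in OVSAHO and -0.46 in KURAMOCHI (adjusted p = 0.00523). TEAD2, at 0.15 and -0.20, did not pass. VGLL4, which competes with YAP for TEAD, was at -0.23 and 0.41, opposite in sign, and the difference between the lines of -0.64 passed the test (adjusted p = 0.00533).

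**Figure D4:**
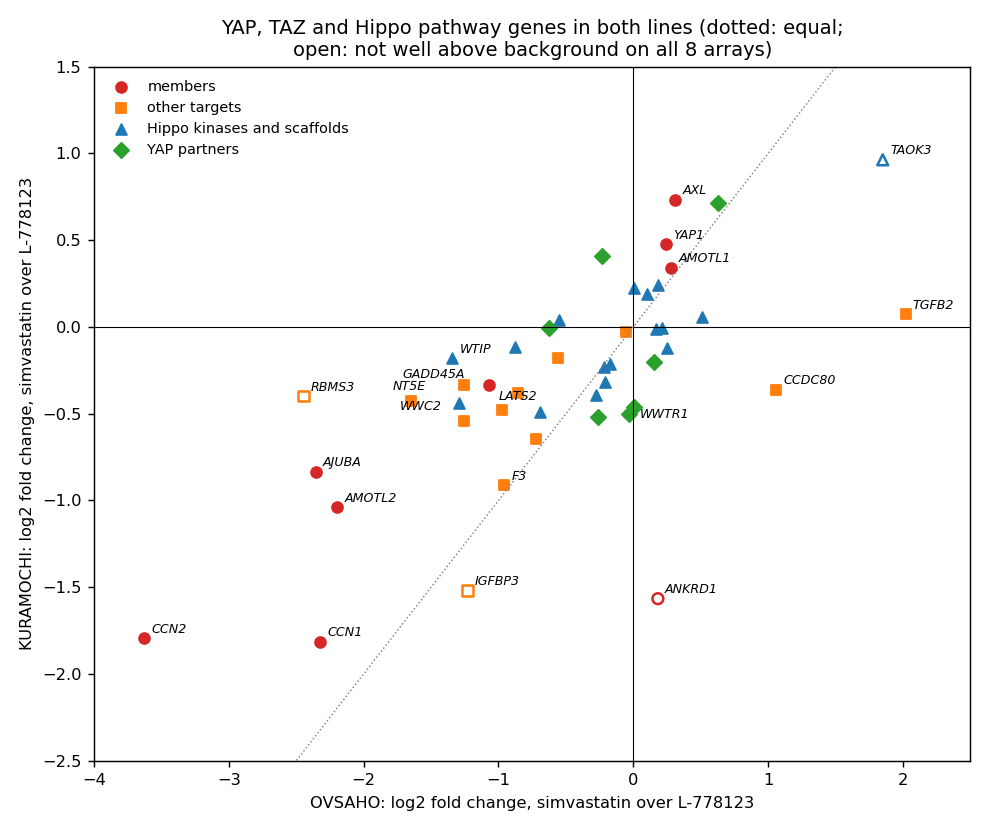
Log2 fold change of simvastatin over L-778123 in OVSAHO (x axis) against KURAMOCHI (y axis) for each tested gene of the 10 genes and of 3 pathway lists, with open symbols for genes not well above background on all 8 arrays. CCN1, CCN2, AMOTL2 and AJUBA lie at the lower left, while TGFB2 lies at the right, near 0 in KURAMOCHI.

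The genes whose profile over the 8 arrays was most like that of CCN1 and of CCN2 were looked up among 14411 named genes outside the lists that were well above background on all arrays, by the root mean square difference of log2 levels, each centred on its own mean. For CCN1 they were PLK2, a polo-like kinase, at 0.125, SCEL, the gene of sciellin, at 0.196 and TPM1, a tropomyosin, at 0.267. PLK2 differed between the drugs by -2.10 in OVSAHO and -1.58 in KURAMOCHI, near the -2.32 and -1.81 of CCN1. For CCN2 the nearest were more distant, with SPARC, a matricellular protein, at 0.836, ZBED2 at 1.12 and BMP6 at 1.13. SPARC differed by -1.58 and -0.89. The likeness is over 8 arrays of 4 groups and is a description.

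**Figure D5:**
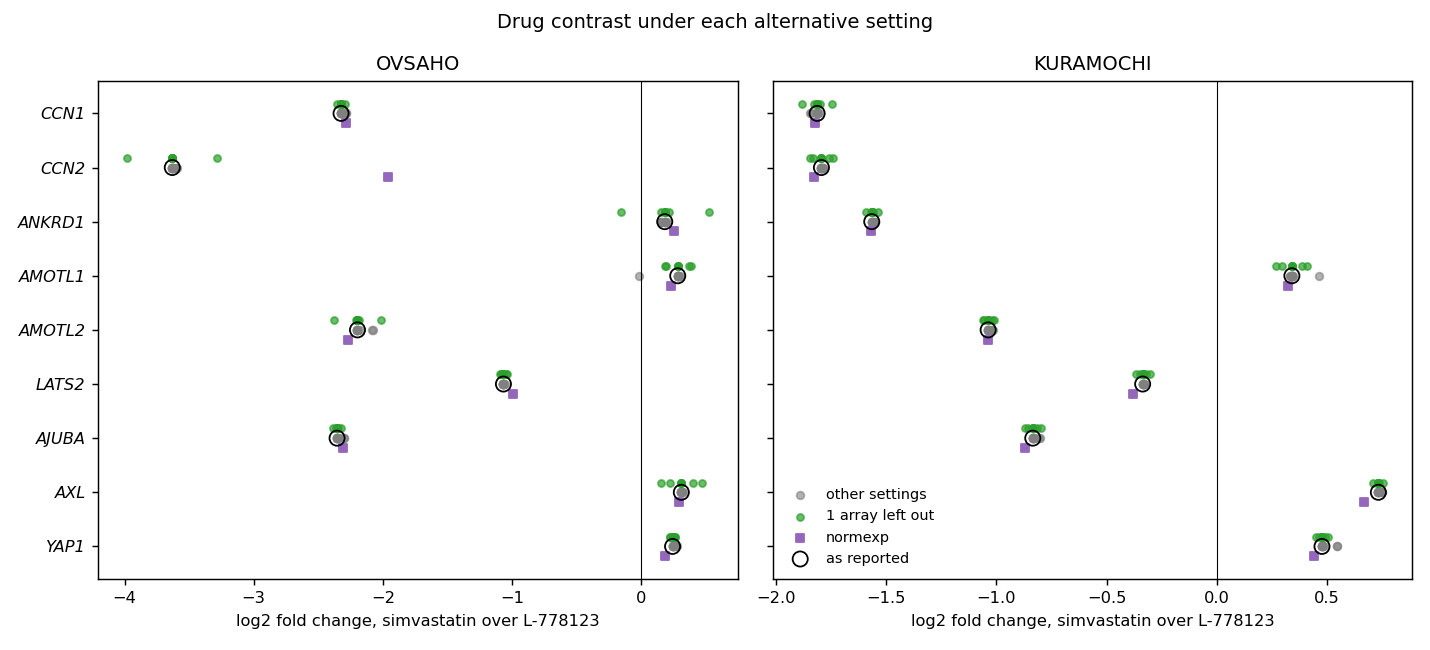
Log2 fold change of simvastatin over L-778123 (x axis) for the 9 genes (y axis) in OVSAHO (left) and KURAMOCHI (right) as reported (open circles) and under the alternative settings. The reported values and the alternatives lie close together, apart from CCN2 in OVSAHO, which moved to -1.96 with normexp, AMOTL1 in OVSAHO, which moved to -0.014 with the median over its probes, and ANKRD1 in OVSAHO, which was not well above background.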

How the data were processed

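RNA of the 8 samples was measured on 1-color Agilent arrays, grouped by the labels into 4 groups of 2. The authors scanned the arrays and used Feature Extraction 11.5.1.1, and deposited for each spot a processed intensity, which the software had corrected for background, with flags and the median intensities of the spot and its background. They also deposited a table of intensity for each array. Its 75th percentile was 384 on every array and its sorted values above the median differed by at most 0.000764 on the log2 scale, so that it is quantile normalized, where the methods name the 75th percentile. It was used as an alternative.

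Outlier spots, 58 to 99 per array, and controls were left out, 39 of 58201 probes then had no spot on an array, and log2 intensity minus the 75th percentile of the array was averaged over spots. Of 50096 identifiers, 24782 were named through RefSeq accessions, a table of a later assembly than the array's, from which only names were taken. A gene was read at its probe of highest mean signal. The test, limma 3.58.1 under R 4.3.3 with lmFit and eBayes, took the 33753 probes that some group had well above background on 2 of 2 arrays (1 mean per group, a spread shared by the 4 groups, 4 residual degrees of freedom), and was tested on simulated data. The threshold, an adjusted p under 0.05 and a fold of at least 2, is that of the methods. The genes named are the 10 genes, fixed genes of each list, the called gene with the largest rise and fall of a list, and the 3 genes most like CCN1 and CCN2. The genes and lists were chosen with earlier results of these data known, and 1 list is not reported here. Alternatives were the filter, normexp (on the median of a spot), quantile and other scaling, the authors' table, a floor, other thresholds, the line alone, the median over probes, a block for the replicate number, the methods' analysis of variance and each array left out. With 1 slide there was no slide term to fit. The number of arrays limits the precision. Python 3.11.15 and matplotlib 3.10.9 drew the figures.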

Additional observations from a re-analysis of the deposited data

Results flagged for a closer look

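For 6 of the genes, limma's test of the difference between the lines in simvastatin against L-778123 was passed, and for 4 of them it rests on signals well away from background. The values, OVSAHO minus KURAMOCHI on the log2 scale, were -1.52 for AJUBA, -1.16 for AMOTL2, -0.73 for LATS2 and -0.51 for CCN1, with simvastatin lower in both lines, further in OVSAHO. That of CCN1 did not pass under 3 of the alternatives, at adjusted p values of 0.0526 to 0.0681. The value of -1.84 for CCN2, which stood near background in OVSAHO with simvastatin, was -0.13 with normexp (adjusted p = 0.429) and no longer passed. The offset of normexp draws dim signals together, and the call was kept in 17 of the 18 alternatives. ANKRD1 was not well above background on any OVSAHO array, so that its 1.75 holds a bound in place of a level and is not a measured difference. Whether the doses acted alike on both lines was not tested, and the line cannot be told apart from its position on the slide.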

How the results depend on the processing

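Of the values recomputed under the alternatives, 645 kept their direction and their call by adjusted p and fold together, 5 changed sign, 5 lost the call and 7 gained it. The 645 include genes that were not called under either setting. They also include settings that cannot move the log2 value of a drug comparison, such as leaving out an array of the other line. With each array left out in turn, 5 genes were lower and 0 higher in OVSAHO, 4 lower and 0 higher in KURAMOCHI, 2 to 3 lower and 1 higher in the difference between lines, and 6 to 7 lower and 0 higher in OVSAHO against KURAMOCHI. With the adjusted p alone, 1 gene was higher in OVSAHO and 2 in KURAMOCHI, and 5 were lower in the difference between lines. At a fold of 1.5, 1 was higher in KURAMOCHI. The two-way analysis of variance left 2 lower in KURAMOCHI, where CCN2 and ANKRD1 did not pass and AXL, under 2-fold before, did not either, and it called 1112 probes in KURAMOCHI in all, against 692 higher and 1196 lower. On the KURAMOCHI arrays alone, limma called 4 lower in KURAMOCHI. With the filter of all arrays well above background, which drops ANKRD1, 0 were higher in the difference between lines. Normexp called 746 probes higher and 811 lower in OVSAHO and 202 and 455 in KURAMOCHI, and 1 higher and 3 lower of the other targets in OVSAHO. ANKRD1 in OVSAHO, where it is dim, was -0.16 without its L-778123 replicate 1 and 0.52 without replicate 2. AMOTL1 in OVSAHO was -0.014 with the median over its probes, and its difference between lines was 0.031, 0.045 and 0.012 without the OVSAHO simvastatin replicate 2, the OVSAHO L-778123 replicate 2 or the KURAMOCHI L-778123 replicate 1. YAP1 between the lines was called at -1.04 with quantile normalization, -1.03 with the authors' table and at just over 2-fold when any of 4 arrays was left out, and AMOTL1 at -2.15 with the median over its probes. The causes were not tested. The labels do not say whether equal replicate numbers pair the samples. Correlations of the replicate deviations between groups were 0.000848 to 0.0555, which cannot show whether samples were handled together. With the replicate block, 5 genes were lower in OVSAHO and 4 in KURAMOCHI, and 3688 and 1853 probes were called.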
